A study of Mus musculus with 3 samples.

Results

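Enzymes that add or remove acetyl and methyl groups on histones were measured in postnatal mouse neural precursors. They were taken as the genes whose symbol begins with Kdm, Hdac, Kat, Kmt, Mll, Setd or Prmt and a digit. The X- and Y-linked genes Kdm5c, Kdm5d and Kdm6a were left out. This gave 55 of the 22180 genes with a probe set of their own: 14 lysine demethylases (Kdm), 11 deacetylases (Hdac), 7 lysine acetyltransferases (Kat), 8 lysine methyltransferases (Kmt), 8 SET domain proteins (Setd) and 7 arginine methyltransferases (Prmt). No probe set was named with an older Mll symbol. Kdm2b, Prmt2 and Kat14 share their probe sets with other genes and were not analysed here. Where a gene had several probe sets, the one with the highest mean signal was used, which concerned Kdm6b and Hdac11.

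The series holds 3 arrays of a single group. Each carried biotin-labelled total RNA of wild-type (WT) CD1 neurospheres, floating colonies grown from cells of the V-SVZ (ventricular-subventricular zone), a stem cell niche beside the lateral ventricles. The pups were of postnatal day 8 (P8; day 7 or 8 in the protocol), and the cells were grown for 7 days at 10 cells per microlitre with 10 ng/ml FGF, 20 ng/ml EGF and heparin. Pups were kept in separate cultures, but the sources used here do not state whether an array stands for 1 pup, so that each p-value covers differences among the 3 arrays alone, and these could be technical.

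Histone tails carry marks that are written by acetyltransferases and methyltransferases, erased by deacetylases and demethylases, and read by proteins with domains that bind the modified residue. Acetylation and methylation of lysine 4 of histone H3 accompany active promoters, whereas methylation of lysine 9 or lysine 27 of H3 accompanies silent chromatin. In the mouse V-SVZ, Kmt2a, Kdm6b and Kat6b are known as genes that neurogenesis from stem cells depends on, and class I deacetylases are known to act in the choice between neuronal and glial fates.

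With no second group, detection was judged against genes of chemosensory neurons. The 95th percentile of the signals of 1400 olfactory and vomeronasal receptor probe sets served as the reference level, at 5.63, 5.53 and 5.71 on arrays 1, 2 and 3. Values are log2 signals, and a margin is a signal minus the reference level of the same array. Margins were tested against 0 with limma (moderated, one-sided, all genes in 1 fit), and a Benjamini-Hochberg adjusted p under 0.05 counts as above the level. Signals of different genes also differ by how well their probes bind, so the margins of 2 genes were not compared as amounts of RNA. RNA of whole cultures cannot tell a transcript in fewer cells from less transcript per cell.

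Of the 55 enzyme genes, 53 (96.4%) were above the reference level, against 59.1% of all genes and 68.7% of genes that RefSeq lists as protein coding, receptors left out. The median margin was 3.30 log2 units over the enzyme genes and 0.76 over all genes. The 53 genes exceeded the level on each of the 3 arrays, and the other 2, the arginine methyltransferase gene Prmt8 and the demethylase gene Kdm4d, were under it on each. A signal over the 75th percentile of all genes on every array was found for 38 of the 55 (69.1%), against 24.4% of all genes. The enzymes therefore differ little in whether they were detected, and the exceptions are few.

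**Figure D1:**
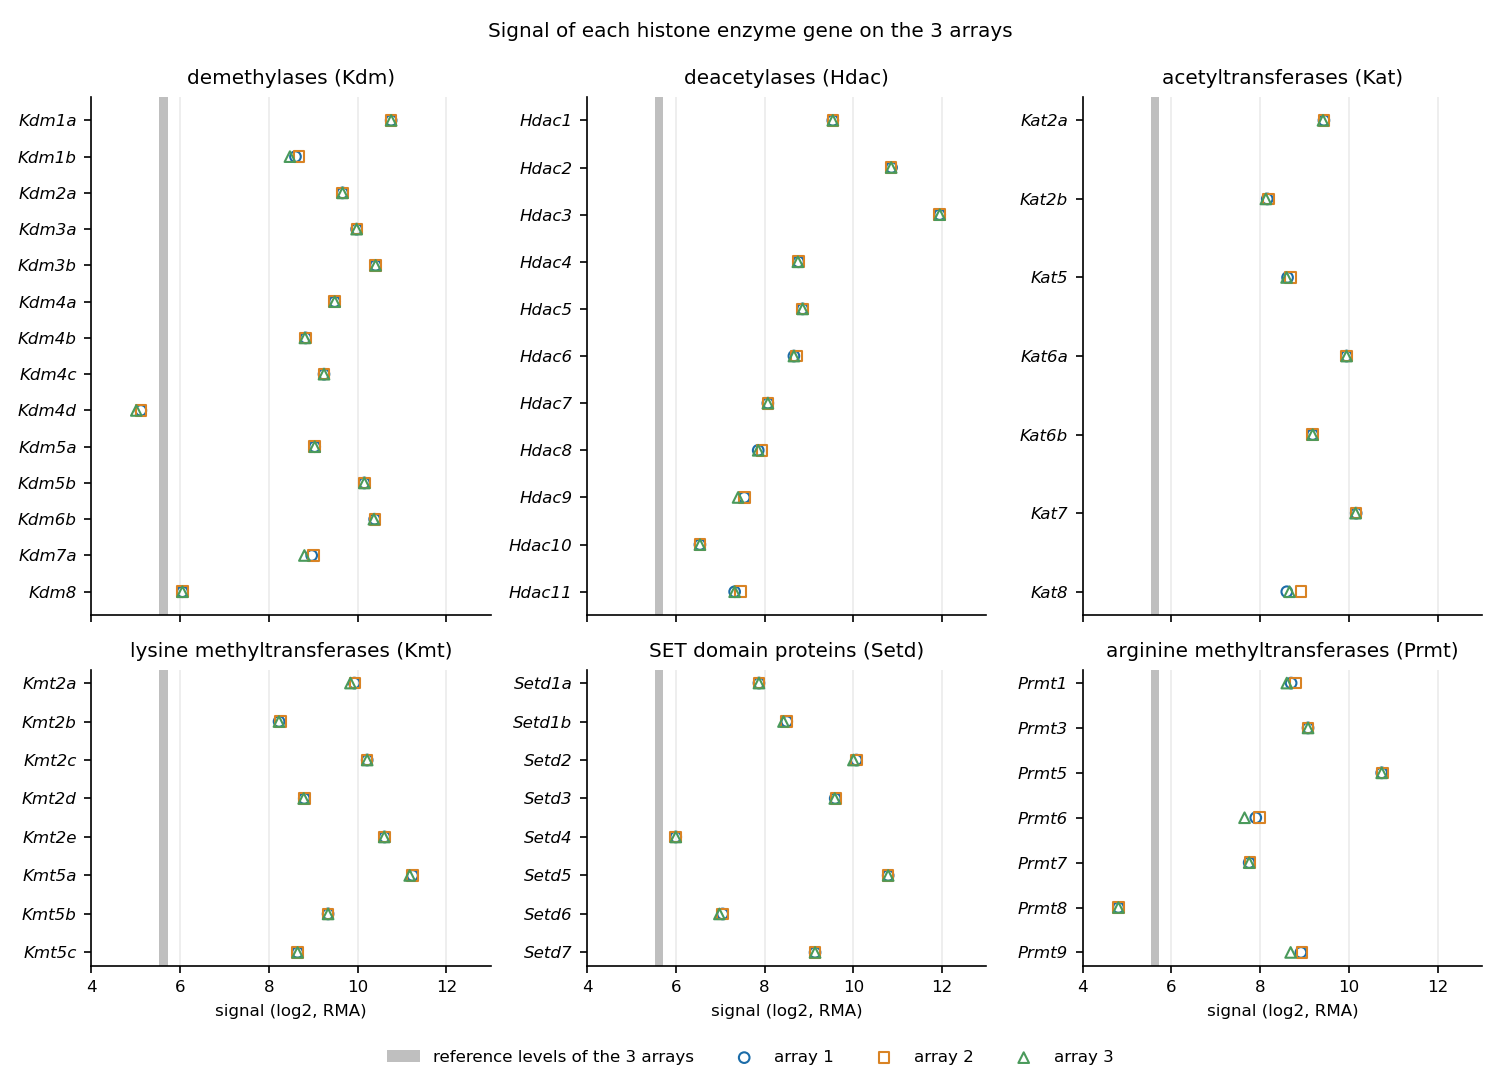
Log2 signal of each of the 55 histone enzyme genes (rows, by family) on arrays 1, 2 and 3 (circle, square, triangle), with the range of the 3 reference levels as a grey band from 5.53 to 5.71. Only Prmt8 and Kdm4d lie left of the band, and the symbols of most genes overlap.

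Prmt8 encodes an arginine methyltransferase that is anchored at the plasma membrane and known from neurons, and its closest relative is Prmt1, the main enzyme of asymmetric arginine dimethylation. Kdm4d encodes a demethylase of H3 lysine 9 known in the mouse mainly from testis, and Kdm4a belongs to the same subfamily. Their promoters are shown as the sequences of the members not above the reference level beside those of relatives that were. Each window holds 300 bases around the start of the gene, read 5′ to 3′ on the gene's strand, from RefSeq on build GRCm38.p6. Capitals mark each CG dinucleotide.
Prmt8: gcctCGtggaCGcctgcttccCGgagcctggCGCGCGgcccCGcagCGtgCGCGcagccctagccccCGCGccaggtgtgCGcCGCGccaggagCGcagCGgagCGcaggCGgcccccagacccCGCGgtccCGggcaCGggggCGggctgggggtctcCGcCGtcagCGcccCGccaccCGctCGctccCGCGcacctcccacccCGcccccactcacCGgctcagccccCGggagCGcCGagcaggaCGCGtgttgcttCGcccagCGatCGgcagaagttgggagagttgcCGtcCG
Prmt1: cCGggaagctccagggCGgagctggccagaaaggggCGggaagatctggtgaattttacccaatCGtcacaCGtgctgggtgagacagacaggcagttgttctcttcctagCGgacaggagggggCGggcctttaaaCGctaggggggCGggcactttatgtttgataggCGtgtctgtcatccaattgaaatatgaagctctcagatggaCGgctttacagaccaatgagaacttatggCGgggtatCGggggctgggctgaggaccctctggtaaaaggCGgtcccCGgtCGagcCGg
Kdm4d: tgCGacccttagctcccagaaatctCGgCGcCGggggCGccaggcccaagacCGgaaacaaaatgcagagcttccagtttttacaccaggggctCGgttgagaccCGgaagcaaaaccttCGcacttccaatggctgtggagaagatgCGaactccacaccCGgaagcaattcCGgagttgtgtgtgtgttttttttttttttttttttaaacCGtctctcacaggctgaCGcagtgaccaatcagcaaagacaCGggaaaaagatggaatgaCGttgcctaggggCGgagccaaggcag
Kdm4a: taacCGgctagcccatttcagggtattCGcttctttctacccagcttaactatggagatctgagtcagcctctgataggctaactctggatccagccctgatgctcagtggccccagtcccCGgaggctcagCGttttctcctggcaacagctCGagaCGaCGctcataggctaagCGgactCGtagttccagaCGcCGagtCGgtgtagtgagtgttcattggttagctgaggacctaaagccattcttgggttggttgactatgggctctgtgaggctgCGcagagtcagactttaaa

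The Prmt8 window lies at chr6:127769106-127769405 on the minus strand and holds 44 CG dinucleotides. As many or more were found in 2.25% of 32851 promoter windows of the mouse genome, whose median was 7. A further annotated start of Prmt8 gives a window that overlaps it nearly completely, with 43. The Prmt1 window (chr7:44986371-44986670, minus strand) holds 17, the Kdm4d window (chr9:14500433-14500732, minus strand) 17 and the Kdm4a window (chr4:118179994-118180293, minus strand) 13. In both pairs shown, the gene not above the reference level thus has a window with at least as many CG dinucleotides as the window of the relative shown. The windows of Kdm4b and Kdm4c, which were also above the level, were not examined.

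Short motifs were searched on both strands of these windows, none of which contains another. GGGCGG, bound by SP factors, stands in the windows of Prmt8, Prmt1 and Kdm4d but not of Kdm4a, and in 35.7% of all windows. CCAAT stands in those of Prmt1, Kdm4d and Kdm4a but not of Prmt8, and in 37.4% of all windows. GCGCATGC (NRF1, 2.71% of all windows), CCGGAAGT (ETS factors, 3.89%), TGACGTCA (CREB factors, 1.79%) and ATGGCGGC (YY1, 2.24%) were in none of the 4. A match of letters is a description and no evidence of binding. A window was found for 43 of the 55 enzyme genes (78.2%), fewer than the 80% needed for a comparison of CG content over the families, so that this check is void.

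Prmt8 had a signal of 4.80 on each array and a margin of -0.82 ± 0.091 (SD, n = 3). Kdm4d had 5.11, 5.11 and 5.01 on arrays 1, 2 and 3, with a margin of -0.55 ± 0.14. Neither was above the reference level (limma adjusted p = 1 for both). RefSeq lists a pseudogene Kdm4dl named after Kdm4d, and likewise pseudogenes named after Hdac1, Kat2b and Kat6b. Whether the probes of these members also bind such copies was not tested.

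Among the genes called, Setd4 and Kdm8 lay nearest to the level. Setd4, a SET domain protein gene, had 6.00 on each array and a margin of 0.37 ± 0.091 (limma adjusted p = 1.66e-06). Kdm8, which encodes a JmjC protein whose substrates are debated, had 6.05 on each array and a margin of 0.43 ± 0.091 (limma adjusted p = 5.91e-08). Hdac10, a class IIb deacetylase gene whose enzyme acts on polyamines, followed with 6.54 on each array. These equal values leave the reference level as the only source of spread in the margins, and at the 99th percentile of the receptors (6.42, 6.09 and 6.69) the calls of all 3 genes ended.

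**Figure D2:**
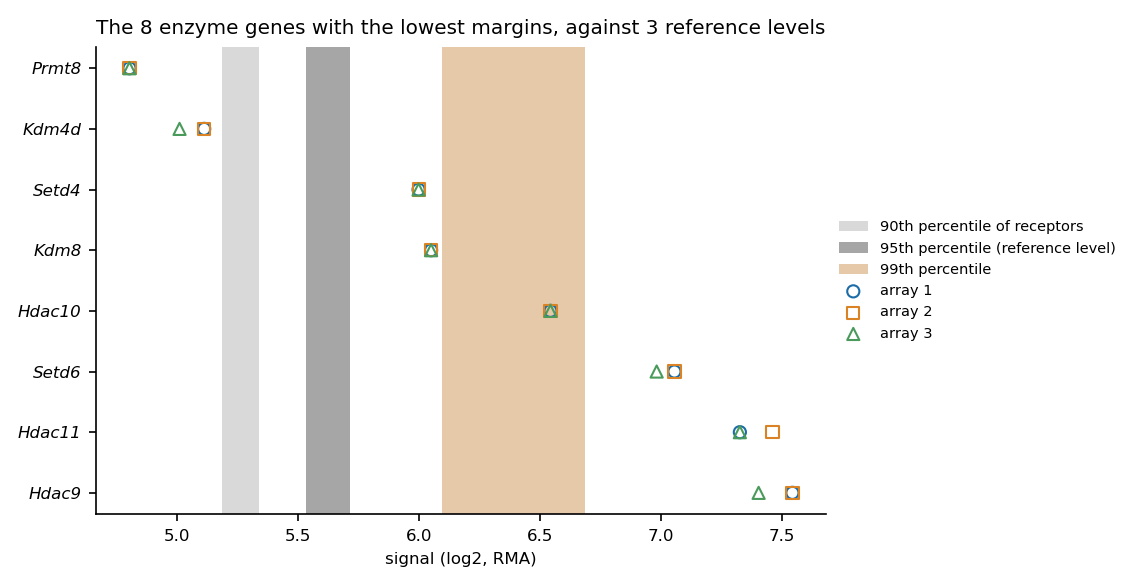
Log2 signals of the 8 enzyme genes with the lowest margins on arrays 1, 2 and 3, with bands for the range over arrays of the 90th, 95th and 99th percentile of the receptors. Prmt8 and Kdm4d lie left of all bands, Setd4 and Kdm8 between the 95th and the 99th percentile, and Hdac10 inside the band of the 99th.

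Demethylases of each substrate group were above the reference level, 13 of the 14 in all. The amine oxidase Kdm1a (LSD1), which removes mono- and dimethyl groups from H3 lysine 4 in the CoREST complex, had 10.76 on each array. Its relative Kdm1b had 8.60, 8.68 and 8.47 (mean 8.58 ± 0.10). The remaining demethylases belong to the JmjC family, which uses iron and oxoglutarate. Kdm2a, which acts on H3 lysine 36, had 9.66 on each array. Kdm3a and Kdm3b, for mono- and dimethylated H3 lysine 9, had 9.98 ± 0.0026 and 10.40 on each array. For trimethylated H3 lysine 9 and lysine 36, Kdm4a had 9.48 on each array, Kdm4b 8.82 ± 0.0091 and Kdm4c 9.24 ± 0.0017. Of the 4 Kdm4 genes 3 were thus above and Kdm4d alone was not.

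Kdm5a and Kdm5b, which remove trimethyl groups from H3 lysine 4, had 9.03 and 10.15 on each array. Kdm7a, for dimethylated H3 lysine 9 and lysine 27, had 8.96, 9.004 and 8.80. Kdm6b (JMJD3), an eraser of H3 lysine 27 trimethylation, had 10.38, 10.39 and 10.37. A second probe set of Kdm6b gave 5.25, 5.34 and 5.25, under the reference level on each array. The call of Kdm6b therefore depends on which of its probe sets is read.

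All 11 deacetylase genes were above the reference level. Hdac1, Hdac2 and Hdac3 encode class I enzymes that are nuclear catalytic subunits of corepressor complexes. Hdac1 had 9.54 and Hdac3 11.95 on each array, and Hdac2 had 10.86 ± 0.0046. Hdac8, also of class I, had 7.88 ± 0.048. Class IIa enzymes shuttle between nucleus and cytoplasm and bind MEF2 factors. Hdac4 had 8.76 ± 0.0072, Hdac5 8.86 and Hdac7 8.07 on each array, and Hdac9 7.54, 7.54 and 7.40. In class IIb, the tubulin deacetylase gene Hdac6 had 8.66, 8.72 and 8.66, beside Hdac10. The single class IV gene Hdac11, whose enzyme removes fatty acyl groups, had 7.33, 7.46 and 7.33. The second probe set of Hdac11 gave 6.52, 6.15 and 6.56. Array 2 was thus the highest by one probe set of Hdac11 and the lowest by the other. Median margins were 4.57 for the 4 class I genes, 2.79 for the 4 class IIa genes, 1.99 for the 2 class IIb genes and 1.75 for Hdac11.

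All 7 acetyltransferase genes were above the reference level, and this family had the narrowest range of margins, 2.53 to 4.53. The GNAT enzymes Kat2a (GCN5) and Kat2b (PCAF) are alternative subunits of the SAGA coactivator. Kat2a had 9.43 ± 0.012 and Kat2b 8.16 ± 0.027. The MYST enzymes had 8.63 ± 0.042 for Kat5 (TIP60, the catalytic subunit of NuA4), 9.95 for Kat6a (MOZ) and 9.18 for Kat6b (MORF) on each array, and 10.16 ± 0.0077 for Kat7 (HBO1). Kat8 (MOF), which acetylates H4 lysine 16, had 8.60, 8.92 and 8.66 (mean 8.73 ± 0.17). Its range of 0.32 log2 units was set by array 2.

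All 8 lysine methyltransferase genes were above the reference level as well. The MLL genes encode H3 lysine 4 methyltransferases. Kmt2a (MLL1) had 9.93, 9.94 and 9.84 and its paralogue Kmt2b 8.24 ± 0.016. The enhancer enzymes had 10.21 on each array (Kmt2c) and 8.79 ± 0.0069 (Kmt2d), and Kmt2e, a relative for which methyltransferase activity is in doubt, had 10.60 ± 0.0047. Among the enzymes of H4 lysine 20, Kmt5a, which adds the first methyl group and acts in the cell cycle, had 11.24, 11.24 and 11.17. Kmt5b and Kmt5c, which add the further ones, had 9.33 and 8.65 on each array.

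The 8 Setd genes were all above the reference level, with margins from 0.37 (Setd4) to 5.16 (Setd5). Setd1a and Setd1b, the SET1-type H3 lysine 4 methyltransferases, had 7.87 ± 0.0013 and 8.48 ± 0.043. Setd2, whose enzyme completes the methylation of H3 lysine 36, had 10.07, 10.07 and 10.00. Setd7, an H3 lysine 4 monomethyltransferase with many other substrates, had 9.14 on each array. Setd3, which methylates a histidine of actin, had 9.59 ± 0.012, Setd5 had 10.79 on each array, and Setd6, which methylates the NF-kappaB subunit RelA, had 7.03 ± 0.042. The 5 MLL genes had a median margin of 4.28 and the 2 SET1 genes one of 2.55.

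Of the 7 arginine methyltransferase genes, 6 were above the reference level. Type I enzymes make asymmetric dimethylarginine. Prmt1 had 8.70, 8.79 and 8.60 (mean 8.70 ± 0.095), Prmt3, whose enzyme acts on a ribosomal protein, had 9.08 on each array, and Prmt6, whose enzyme acts on H3 arginine 2, had 7.90, 7.98 and 7.65 (mean 7.84 ± 0.17). Prmt5, the main type II enzyme and a modifier of spliceosomal Sm proteins, had 10.74, 10.76 and 10.74. Prmt9, also of type II, had 8.92, 8.94 and 8.69 (mean 8.85 ± 0.14). Prmt7, the type III enzyme, which adds a single methyl group, had 7.76 ± 0.010.

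Families were compared array by array through the median margin of their genes, as a description without a test. On array 1 the medians were 3.73 (Kdm), 3.03 (Hdac), 3.55 (Kat), 4.00 (Kmt), 3.19 (Setd) and 3.07 (Prmt), against 0.76 for all genes. On array 2 they were 3.83, 3.18, 3.65, 4.11, 3.29 and 3.26 in the same order, against 0.85. On array 3 they were 3.65, 2.95, 3.47, 3.87, 3.07 and 2.89, against 0.69. On each array the Kmt genes had the highest median, followed by the Kdm, Kat and Setd genes, and only the Hdac and Prmt genes changed places. The genes of all families overlapped widely in their margins.

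The share of genes over the 75th percentile on all arrays was 7 of 8 for Kmt, 6 of 7 for Kat, 11 of 14 for Kdm, 4 of 7 for Prmt, 6 of 11 for Hdac and 4 of 8 for Setd, against the 24.4% of all genes. The families are small, each gene is read by a single probe set, and the part of probe binding in these shares was not tested.

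**Figure D3:**
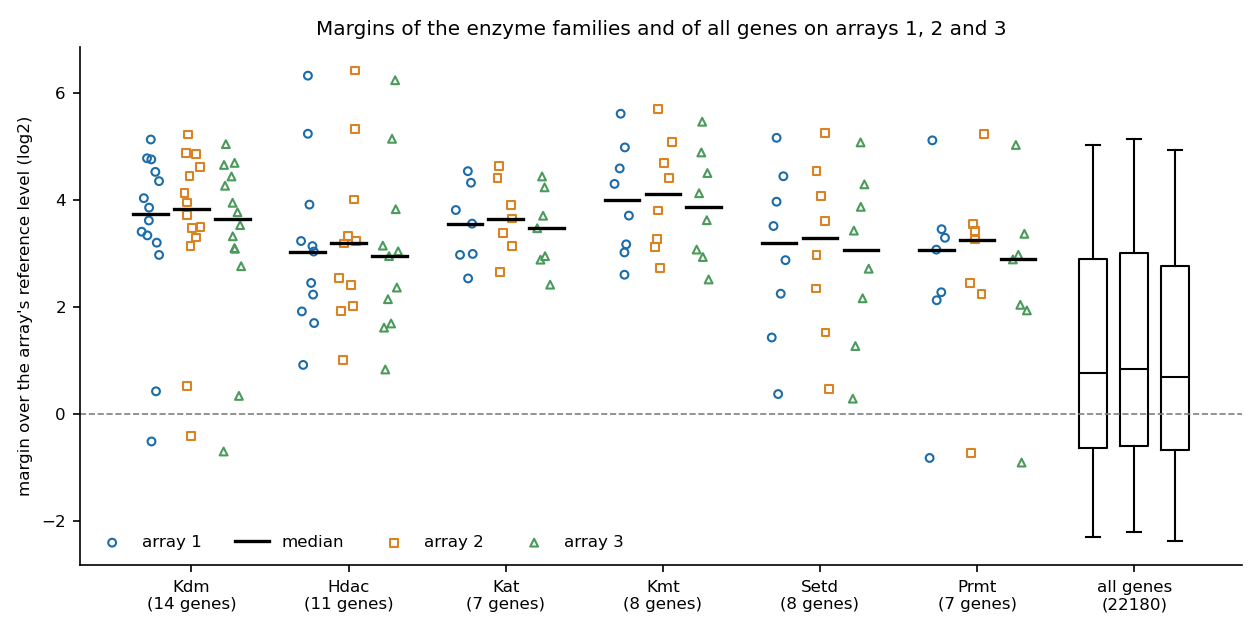
Margin over the reference level (log2) of each enzyme gene by family and array (symbols, black lines for medians) and of all 22180 genes (boxes for quartiles and median, whiskers for the 5th and 95th percentile). The Kmt median is the highest on each array, at 4.00, 4.11 and 3.87, and all family medians lie above those of all genes.

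The range between the 3 arrays exceeded 0.1 log2 units for 10 of the 55 enzyme genes (18.2%). This compares with 35.2% of all genes and 29.6% of genes above the reference level. Exactly equal values on all 3 arrays were found for 22 of the 55 (40%), against 39.4% of all genes, so an SD of 0 understates the true spread. The widest ranges were 0.33 log2 units for Prmt6, 0.32 for Kat8 and 0.26 for Prmt9. Spread was tested on the margins, as each gene's residual variance over the trended variance of its signal class (limma, F test). Differences between the 3 reference levels enter the margins of every gene, so this test does not isolate the spread of signals. A test on signals in place of margins, added after seeing the data, called 0 of all genes. It therefore cannot decide whether any gene differs in spread, and margins were used for that reason. On the margins, the F test called 0 of the 55, with a lowest adjusted p of 0.85, against 1.81% of all genes called. With so small a share over all genes, a count of 0 says little about the enzymes. For the 22 genes with equal signals, the margin SD of 0.091 came from the reference levels alone, so the test could not call them. An unadjusted p under 0.05 was found for 0 of the 55, against 6.39% of all genes. When the 3 arrays were quantile-normalized again, 4 of the 55 (7.27%) had an unadjusted p under 0.05, against 11% of all genes, and 0 passed after adjustment, against 4.62% of all genes.

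The small differences that were present ran mostly one way. Array 2 was the highest of the 3 for 20 enzyme genes (36.4%), array 1 for 1, Hdac2, and array 3 for 0. Array 3 was the lowest for 23 (41.8%), array 1 for 1, Kat8, and array 2 for 0. Over all genes above the reference level, array 2 was the highest for 34.3% and array 3 for 8.60%, while array 3 was the lowest for 32.9% and array 2 for 7.66%. The reference levels themselves ran the other way, with the lowest on array 2 and the highest on array 3. By family, array 3 was the lowest for 5 of 8 Kmt genes, 4 of 7 Kat, 4 of 8 Setd, 3 of 7 Prmt, 5 of 14 Kdm and 2 of 11 Hdac genes. Whether extraction, hybridisation or the cultures differed between the arrays was not tested.

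**Figure D4:**
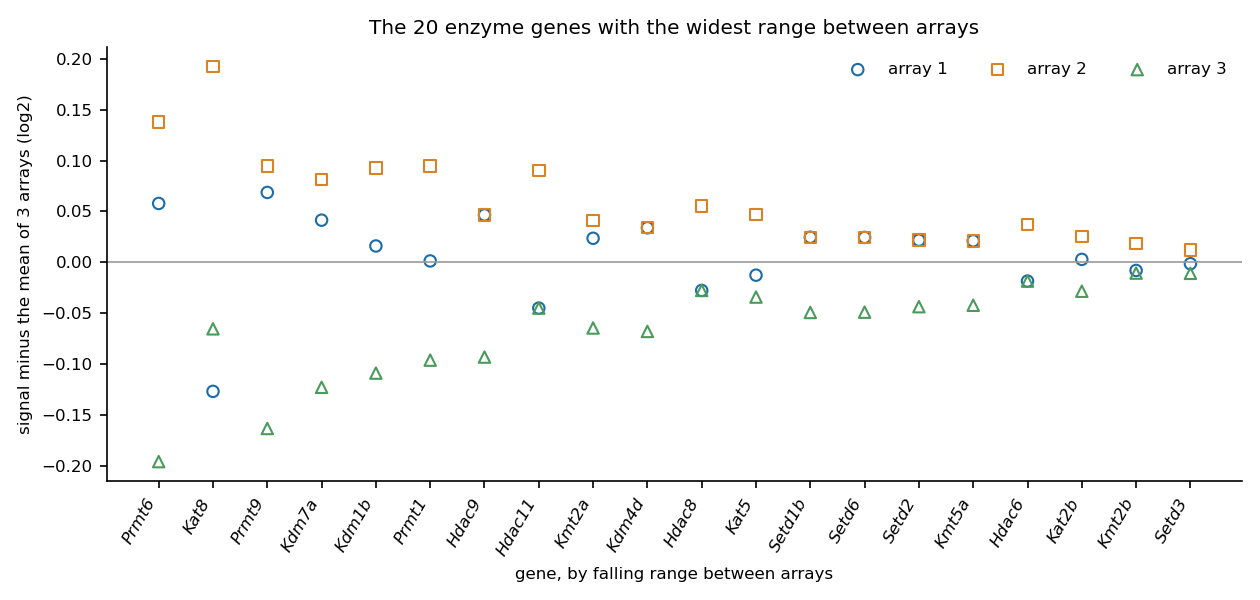
Log2 signal minus the mean of the 3 arrays (y axis) for the 20 enzyme genes with the widest range, in falling order of range (x axis), on arrays 1, 2 and 3 (circle, square, triangle). The square is at or above the other symbols for each of these genes, and Kat8 is the only one in which array 1 is the lowest.

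Partners of the enzymes were measured in lists of complex subunits. All 12 listed subunits of the COMPASS complexes of MLL and SET1 methyltransferases were above the reference level. Among them were Wdr5 (7.78 ± 0.036), Ash2l (9.74), Rbbp5 (9.13) and Dpy30 (8.003), the last 3 equal on all arrays. All 25 measured subunits of deacetylase corepressor complexes were above, including the scaffolds Sin3a (8.77 ± 0.038) and Sin3b (8.75 on each array) and the CoREST genes Rcor1 (9.08 ± 0.13) and Rcor2 (9.21 ± 0.042). All 30 measured subunits of acetyltransferase complexes were above too, with Trrap at 10.08, Ep400 at 9.81, Brpf1 at 9.23 and Brpf3 at 6.99 on each array. Over all genes, 59.1% were above. At the 99th percentile of the receptors the counts of the 3 lists were 11 of 12, 25 of 25 and 29 of 30, against 44.9% of all genes. Median margins of these lists were 3.80, 3.59 and 3.34, near the 3.30 of the enzyme genes and against 0.76 for all genes.

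Genes listed as other writers and erasers, outside the 6 families, and as readers of the marks gave like shares. These ran from 95.2% to 100%, against 59.1% of all genes. Of 21 other writers, 20 were above, including Hat1 (10.08), Crebbp (11.10) and Ep300 (10.40) on each array and Ncoa1 (10.39 ± 0.0017), while Smyd1, a muscle methyltransferase gene, was not (5.42 ± 0.063), although it was with the 90th percentile of the receptors as the level. All 15 genes listed as other erasers were above. Among them were the sirtuin genes Sirt1 (9.41) and Sirt2 (13.01) on each array, Sirt3 (7.26 ± 0.0085) and Sirt4 (6.79 ± 0.17). Whether the product of each listed gene removes histone marks was not tested. At the 99th percentile of the receptors 11 of these 15 were above, against 44.9% of all genes, and Sirt4 was among those not above. Of 22 readers, 21 were above, including Brd2 (8.997), Brd3 (7.55) and Brd7 (9.12) on each array and Brd8 (8.56 ± 0.053). The exception was Brdt, a bromodomain gene of the testis (5.27 on each array). Whether calls in these lists go with the tissues a gene is known from was not tested.

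**Figure D5:**
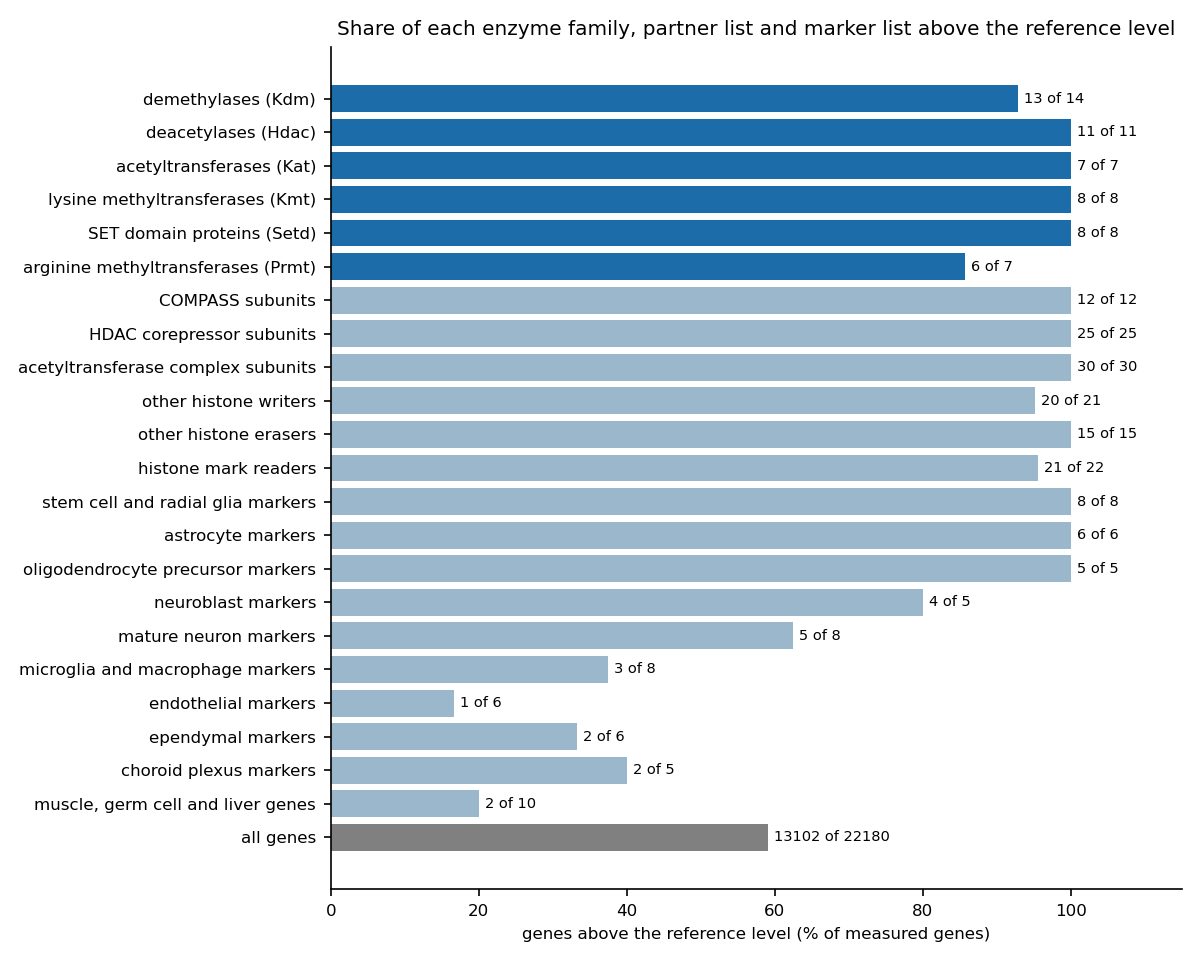
Share of measured genes above the reference level (%, x axis) for the 6 enzyme families (dark bars), partner and marker lists (light bars) and all 22180 genes (grey bar), with counts beside the bars. Each enzyme family and partner list lies between 85.7% and 100%, while all genes lie at 59.1%.

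The labelled cell type was checked against markers. All 8 stem cell and radial glia markers (Sox2 at 11.39 ± 0.073, Nes at 8.50 ± 0.035), all 6 astrocyte and all 5 oligodendrocyte precursor markers and 4 of 5 neuroblast markers exceeded it by the same test. Of mature neuron markers 5 of 8 were above, with Snap25 at 8.57 on each array and Slc17a7 not above at 5.13 ± 0.16. Markers of microglia (3 of 8), endothelium (1 of 6), ependyma (2 of 6) and choroid plexus (2 of 5) and genes of muscle, germ cells and liver (2 of 10) were called in smaller shares than the 59.1% of all genes. For ependyma this turned at the 90th percentile of the receptors, where 5 of 6 markers (83.3%) were above, against 66.7% of all genes. Which of these cells carried each enzyme transcript was not tested.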

How the data were processed

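Expression was measured on 3 arrays of neurospheres, all of 1 group. The deposited values are log2 signals of 41345 probe sets, made by the authors with RMA per the submitters' processing notes. Its version and options, and the array's genome build, are not given in the sources used here. Symbols came from the platform annotation: 23521 probe sets carried 1 symbol, 1814 several and 16010 none, and only those with 1 were used.

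Detection was tested with limma 3.58.1 in R 4.3.3 on the margin over the reference level (an intercept, eBayes with an intensity trend, prior degrees of freedom infinite), adjusted by Benjamini-Hochberg over 22180 genes. All genes of like signal therefore shared 1 spread, and a margin of 0.15 sufficed for a call. Spread between arrays was tested in the same fit. Both steps were also run on simulated data with independent noise for every gene. Those data lack the exactly equal values of 39.4% of all genes, so they cannot show how the tests behave here. The number of arrays limits the precision. The members and lists were chosen with earlier results of these data known. Every member of the 6 families could be named, and of each list the first 4 genes above and the first 4 not above, in the order written. The alternatives concerned the reference level, the probe set, the scaling, the model and the arrays included. Figures were drawn with matplotlib 3.10.9.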

Additional observations from a re-analysis of the deposited data

How the results depend on the processing

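Under 13 alternatives, 50 to 53 of the 55 enzyme genes were above the reference level, and 51 genes kept both their call and the sign of their margin. Centring each array on its median is among the 13, but it leaves every margin unchanged and could not alter a call. The counts per family stayed within 1.5 times of those reported. With the 99th percentile of the receptors as the reference, 50 were above, against 44.9% of all genes. The margins of Kdm8 and Setd4 were then -0.35 and -0.40, and -0.39 and -0.44 with keratin-associated protein, defensin and bitter taste receptor genes as the reference. Hdac10 was not above under these either. With a required margin of 0.5 log2 units, 51 were above, without Kdm8 and Setd4, against 51.3% of all genes. With the lowest probe set of each gene, 52 were above, against 56.8% of all genes, and the margin of Kdm6b was -0.34. No paired analysis was possible because the series has a single group. The spread test called 0 enzyme genes with another choice of probe set, with quantile normalization and without each array in turn. Of all genes it called 1.85% with the median probe set, 1.96% with the lowest and 4.62% with quantile normalization. Without each array it called 14 to 107 of all genes (0.0631% to 0.482%). Against such small shares, a count of 0 says little about the enzyme genes. A test on signals in place of margins, added after seeing the data, is void: with prior degrees of freedom of 0.30 it called 0 of all 22180 genes.

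At the 99th percentile and with the other reference genes, 11 of 15 genes listed as other erasers were above, without Sirt4, Sirt5, Riox1 and Hr. The shares of all genes were 44.9% and 43.5%. Counts for markers of other cells depended on the level more. At the 90th percentile, 5 of 8 microglia, 2 of 6 endothelial and 5 of 6 ependymal markers were above, against 66.7% of all genes, so that the ependymal share (83.3%) then exceeded that of all genes. At the 99th percentile these were 0, 0 and 1, against 44.9% of all genes. Of mature neuron markers 2 of 8 (25%) were then above, of choroid plexus markers 1 of 5, and of genes of muscle, germ cells and liver 0 of 10. The other reference genes gave the same counts, against 43.5% of all genes. With a required margin of 0.5, counts were 1 for microglia, 1 for choroid plexus and 0 for genes of muscle, germ cells and liver, against 51.3% of all genes. Leaving out each array in turn gave 1 to 2 genes of muscle, germ cells and liver, against 56.4% to 58.7% of all genes. The cause was not tested.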
